A study of Mus musculus with 8 samples.

Results

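Txnip, Arrdc1, Arrdc2, Arrdc3 and Arrdc4 were followed as 5 of the 19938 genes measured in 3134 cells, which are mouse mammary cells of the C127 lineage. Each was represented by the probe set annotated with that symbol alone, chosen by the highest mean over the 8 arrays where a gene has several. Each of the 5 had a single such probe set, so the mean decided nothing, and no measured difference entered the rule. Txnip was, however, already known to differ between the arms when the family was picked, so its arm differences are described below without a test. The members and lists were also chosen with earlier results of these data known, and the p-values below take no account of that. Arrdc5, the remaining alpha-arrestin gene, is listed with other arrestin-fold genes.

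All cells carried 2 stable transgenes, A-fos and the tetracycline regulator tTA, as a Tet-Off pair in which tetracycline keeps A-fos silent. The A-fos protein acts as a dominant negative, pairing with Jun proteins and holding AP-1 off DNA. All cells were kept for 48 h in medium with charcoal-treated serum, which removes steroids, before hormone. The 4 groups, with 2 arrays each, were 4 h of 100 nM dexamethasone and 0 h in cells whose titles say plus tetracycline, and the same times in cells whose titles say no tetracycline. For all 8 samples the treatment protocol states the opposite (1 ug per ml of tetracycline for samples titled no, and 48 h without it for samples titled plus). The arms are therefore called plus-titled and no-titled, and no direction below says which arm expressed A-fos. The labels do not say whether a group's 2 samples were separate cultures, and the line is not stated to be 1 clone or several, so p-values cover only the spread between these samples.

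The alpha-arrestins share the arrestin fold with the beta-arrestins. Most carry short proline-tyrosine motifs that bind ubiquitin ligases of the NEDD4 family, which they bring to membrane cargo. TXNIP, the best known, binds reduced thioredoxin and promotes uptake of the glucose transporter GLUT1 from the cell surface. In glucose-fed cells the factors MondoA and Mlx drive TXNIP and ARRDC4 through carbohydrate response elements, and in mouse lymphoid cells Txnip is a glucocorticoid-induced gene. ARRDC1 drives the budding of small vesicles from the plasma membrane in human cells, and ARRDC3 sorts the beta2-adrenergic receptor there.

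The promoters of the 3 members whose levels changed most, and of Arrdc4, which shares carbohydrate control with Txnip, are shown as annotated by RefSeq (GRCm38.p6), from 250 bases before to 50 after the start. All 5 members matched an entry, and the first of 3 starts is shown for Arrdc3. Capitals mark matches, on either strand, to an E-box (CACGTG), a relaxed carbohydrate response element (CACGNG, any 5 bases, then CNCGNG), the NF-Y box (CCAAT), the AP-1 site (TGACTCA), the FoxO site (GTAAACA) and the glucocorticoid response element (AGAACA, any 3 bases, then TGTTCT). The E-box also fits either arm of the relaxed element.
Txnip, chr3:96557707-96558006, plus strand: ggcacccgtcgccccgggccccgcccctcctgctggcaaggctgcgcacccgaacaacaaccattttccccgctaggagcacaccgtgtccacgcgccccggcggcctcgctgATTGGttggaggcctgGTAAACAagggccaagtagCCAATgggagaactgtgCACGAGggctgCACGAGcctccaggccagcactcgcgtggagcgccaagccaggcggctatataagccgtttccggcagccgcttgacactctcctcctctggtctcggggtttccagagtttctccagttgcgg
Arrdc2, chr8:70839671-70839970, minus strand: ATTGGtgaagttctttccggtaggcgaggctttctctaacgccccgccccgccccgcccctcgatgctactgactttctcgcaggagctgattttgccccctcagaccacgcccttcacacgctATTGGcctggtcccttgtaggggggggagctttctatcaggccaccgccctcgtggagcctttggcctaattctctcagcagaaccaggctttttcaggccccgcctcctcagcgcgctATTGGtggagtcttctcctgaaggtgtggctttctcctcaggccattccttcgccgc
Arrdc3, chr13:80883134-80883433, plus strand: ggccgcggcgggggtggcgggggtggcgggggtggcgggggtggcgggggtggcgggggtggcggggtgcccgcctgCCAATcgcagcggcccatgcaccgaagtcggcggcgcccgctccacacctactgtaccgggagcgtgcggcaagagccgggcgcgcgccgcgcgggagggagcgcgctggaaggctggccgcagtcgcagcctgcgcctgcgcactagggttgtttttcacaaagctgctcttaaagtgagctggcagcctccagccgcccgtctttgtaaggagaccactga
Arrdc4, chr7:68749189-68749488, minus strand: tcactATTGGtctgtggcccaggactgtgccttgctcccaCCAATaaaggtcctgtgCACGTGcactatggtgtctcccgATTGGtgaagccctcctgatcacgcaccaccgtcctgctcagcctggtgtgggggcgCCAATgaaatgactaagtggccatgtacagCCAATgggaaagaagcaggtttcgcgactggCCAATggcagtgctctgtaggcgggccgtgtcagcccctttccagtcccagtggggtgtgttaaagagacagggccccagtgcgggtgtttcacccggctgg

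The Txnip window held the relaxed carbohydrate response element at positions -85 to -69 from the start, a motif found in 0.365% of 32851 promoter windows. A FoxO site (3.65% of windows) and 2 NF-Y boxes (37.4% of windows) lay upstream of it. Arrdc4 held an E-box (7.15% of windows) and 6 NF-Y boxes, and Arrdc2 held 3 NF-Y boxes. The Arrdc3 window held 1 NF-Y box, and that of Arrdc1, not printed, held none of the 6 motifs. Matches to the AP-1 site (5.2% of windows) and the full glucocorticoid response element (0.00913%) were not found in the window of any member. A match describes letters only, and its absence covers only these 300 bases and the exact patterns searched. The full glucocorticoid response element was in 3 of the 32851 windows, so its absence from 5 genes says little about them.

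**Figure D1:**
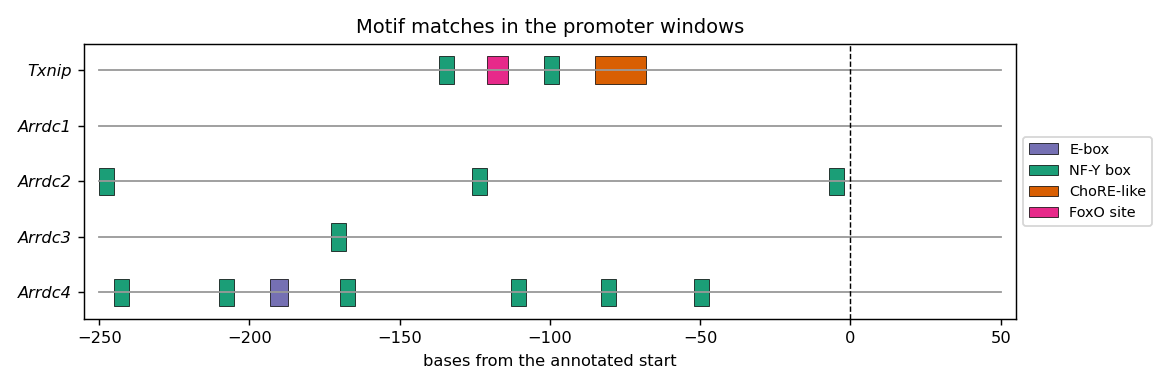
Positions of motif matches in the 300-base promoter windows of the 5 genes (first annotated start for Arrdc3). The horizontal axis gives bases from the annotated start (dashed line). Txnip alone among the 5 has the relaxed carbohydrate response element (ChoRE-like, orange) and a FoxO site, and Arrdc4 has 6 NF-Y boxes.

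The values are log2 expression after RMA, with array medians from 5.59 to 5.69 over the genes tested and correlations of 0.993 to 0.996 between the arrays of a group. A gene was called changed at an adjusted p under 0.05 in limma (Benjamini-Hochberg over all 19938 genes, 2-sided). Fkbp5 and Tsc22d3, known hormone targets, rose 9.99-fold and 7.2-fold in the plus-titled arm and 8.27-fold and 6.24-fold in the no-titled arm. Of mesenchymal markers, 6 of 7 had a mean level above the median gene, with Vim among the brightest of all genes, as had 3 of 5 basal and 2 of 7 luminal markers. Of the luminal list, Epcam was at percentile 26.1 of genes by level, Krt8 at 52.7 and Krt7 at 52.4. Leukocyte (0 of 4), adipocyte (0 of 4) and endothelial (1 of 4) markers were mostly below the median, with Ptprc at percentile 18.7, Adipoq at 10.1 and Pecam1 at 24.9.

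Txnip was higher in the plus-titled arm at both times and higher after dexamethasone within each arm. In the plus-titled arm it read 9.21 and 9.43 at 4 h, against 8.80 and 8.75 at 0 h (log2). In the no-titled arm it read 7.40 and 7.70 at 4 h, against 6.60 and 6.96 at 0 h. The 4 groups did not overlap, and the lowest plus-titled array lay more than 1 log2 unit above the highest no-titled one. With 2 arrays per group, a pair of groups often fails to overlap by chance, and the share over all genes was not counted. Statements on overlap, here and below, therefore only describe the arrays. At 0 h the plus-titled arm was higher by 2.00 (4-fold), and at 4 h by 1.77 (3.4-fold). By size these were the 8th and 14th largest increases of 19938 genes, described without a test as said above. These ranks only describe a difference that was known when Txnip was picked. In bulk RNA, fewer cells with the transcript and less of it per cell cannot be told apart, here and below.

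The hormone response of Txnip was smaller than its difference between the arms. Averaged over both arms it rose by 0.66 ± 0.11 (SE, 1.58-fold, limma adjusted p = 0.00572), and this call held in each of 15 alternatives (adjusted p up to 0.0331). It was 0.55 ± 0.15 in the plus-titled arm, which missed the threshold (adjusted p = 0.17), and 0.78 ± 0.15 in the no-titled arm, which passed it (adjusted p = 0.0297). The responses differed by -0.23 (95% interval -0.70 to 0.24, adjusted p = 0.997), so no difference between them was shown. The no-titled call was lost without replicate 1 of the no-titled 0 h group (0.60, adjusted p = 0.295), without replicate 2 of the no-titled 4 h group (0.63, 0.26), without either plus-titled 0 h array (0.78, 0.0609 each), and with only the 4 arrays compared (adjusted p = 0.102).

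**Figure D2:**
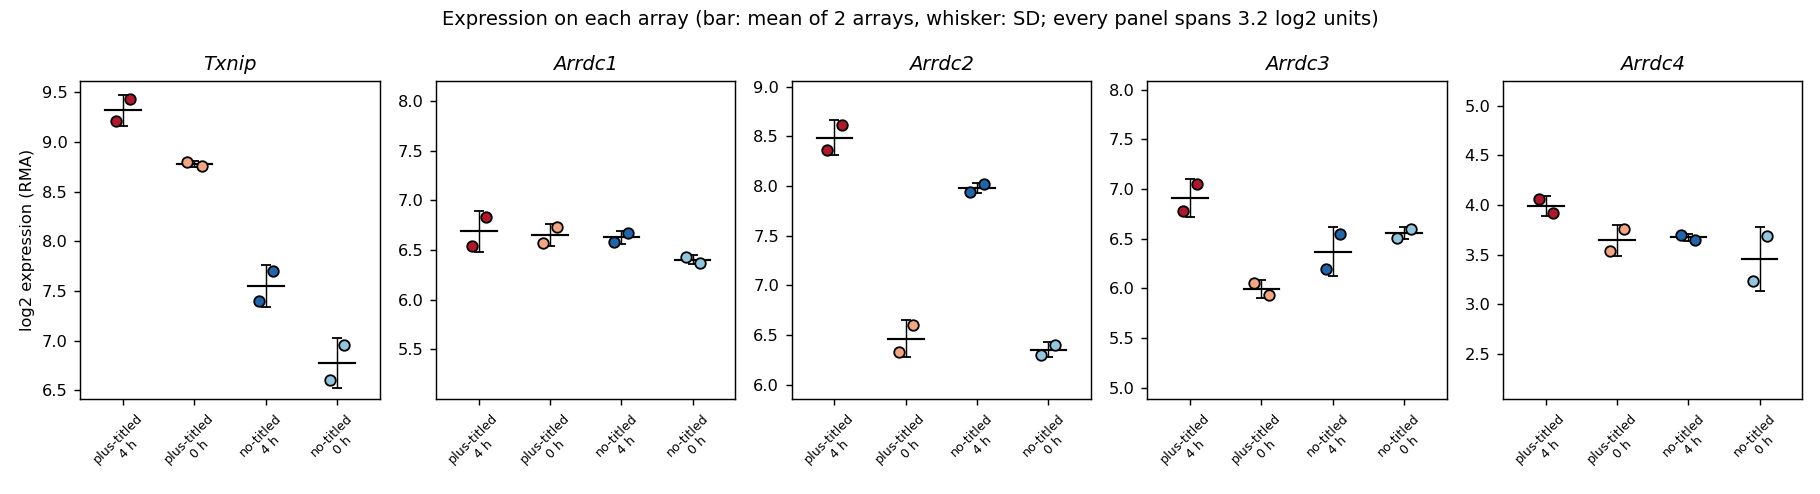
Log2 expression of the 5 genes on each of the 8 arrays (points), by group, with the mean of 2 arrays (bar) and SD (whisker); each panel spans the same range on the log2 scale. Txnip is high in both plus-titled groups, Arrdc2 is high in both 4 h groups, and Arrdc3 is highest in the plus-titled 4 h group and lowest in the plus-titled 0 h group.

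Arrdc2, an alpha-arrestin with less studied cargo, had the largest hormone response of the family. It read 8.36 and 8.61 at 4 h in the plus-titled arm, against 6.33 and 6.60 at 0 h. In the no-titled arm it read 7.94 and 8.01 at 4 h, against 6.30 and 6.40 at 0 h. Every treated array was more than 1 log2 unit above every untreated one. Arrdc2 rose by 2.02 ± 0.13 (SE, 4.07-fold, limma adjusted p = 2.58e-05) in the plus-titled arm and by 1.63 ± 0.13 (3.09-fold, adjusted p = 7.88e-05) in the no-titled arm. These were the 15th and 32nd largest increases of all genes, and the calls held in each of 16 alternatives (adjusted p up to 0.00149).

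Before hormone the Arrdc2 arrays of the arms overlapped, and no difference was detectable (0.11, 95% interval -0.18 to 0.40, limma adjusted p = 0.682). At 4 h the plus-titled arm was higher by 0.51 ± 0.13 (SE, adjusted p = 0.0345). The difference of the responses was 0.40 (95% interval -0.01 to 0.81) and did not pass (unadjusted p = 0.0564, adjusted p = 0.967). At 4 h, 5 of the 8 omissions of a single array ended the call. These were the omissions of either no-titled 0 h array (0.51, adjusted p = 0.0525 each), of replicate 1 or 2 of the no-titled 4 h group (0.47, 0.177 and 0.55, 0.109), and of replicate 2 of the plus-titled 4 h group (0.38, 0.238).

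Arrdc3 rose with dexamethasone in the plus-titled arm and had no detectable change in the no-titled arm. In the plus-titled arm it read 6.77 and 7.04 at 4 h, against 6.06 and 5.93 at 0 h. In the no-titled arm it read 6.19 and 6.54 at 4 h, against 6.51 and 6.59 at 0 h. The plus-titled groups were fully apart, while a no-titled treated array lay inside the range of the untreated ones. The plus-titled increase was 0.92 ± 0.14 (SE, 1.89-fold, limma adjusted p = 0.0111), and the no-titled difference was -0.18 ± 0.14 (95% interval -0.50 to 0.13, adjusted p = 0.844).

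The difference of the 2 Arrdc3 responses was 1.10 ± 0.20 (SE, 95% interval 0.65 to 1.55), the 6th largest positive difference of all genes and 17th of 19938 by p. It had an unadjusted p of 0.000231 and did not pass after adjustment (adjusted p = 0.271). Over 15 alternatives it lay between 0.92 and 1.28, with adjusted p from 0.0686 to 0.947. Limma called 1 gene of 19938 in this contrast (0.00502%), and 1018 genes had an unadjusted p under 0.05.

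The arm difference of Arrdc3 had opposite signs at the 2 times. The change from 0 h to 4 h is the same contrast as the difference of the responses, which did not pass. At 0 h the plus-titled arm was lower, at -0.56 ± 0.14 (SE, limma adjusted p = 0.0352), and at 4 h it was higher by 0.54 ± 0.14 (adjusted p = 0.0386). The plus-titled 0 h arrays enter both the first of these and the plus-titled response. Likewise, the plus-titled 4 h arrays enter both the second and that response. The plus-titled response lost its call without replicate 1 (0.98, adjusted p = 0.0678) or 2 (0.85, 0.101) of the plus-titled 0 h group and without replicate 2 of the plus-titled 4 h group (0.78, 0.132). The 0 h difference lost it without any 1 of its own 4 arrays (-0.62 to -0.49, adjusted p from 0.0763 to 0.182). The 4 h difference lost it without replicate 1 of the no-titled 4 h group (0.36, 0.277), replicate 2 of the plus-titled 4 h group (0.40, 0.254) or either no-titled 0 h array (0.54, 0.0579 each), and with only the 4 arrays compared (adjusted p = 0.0757).

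**Figure D3:**
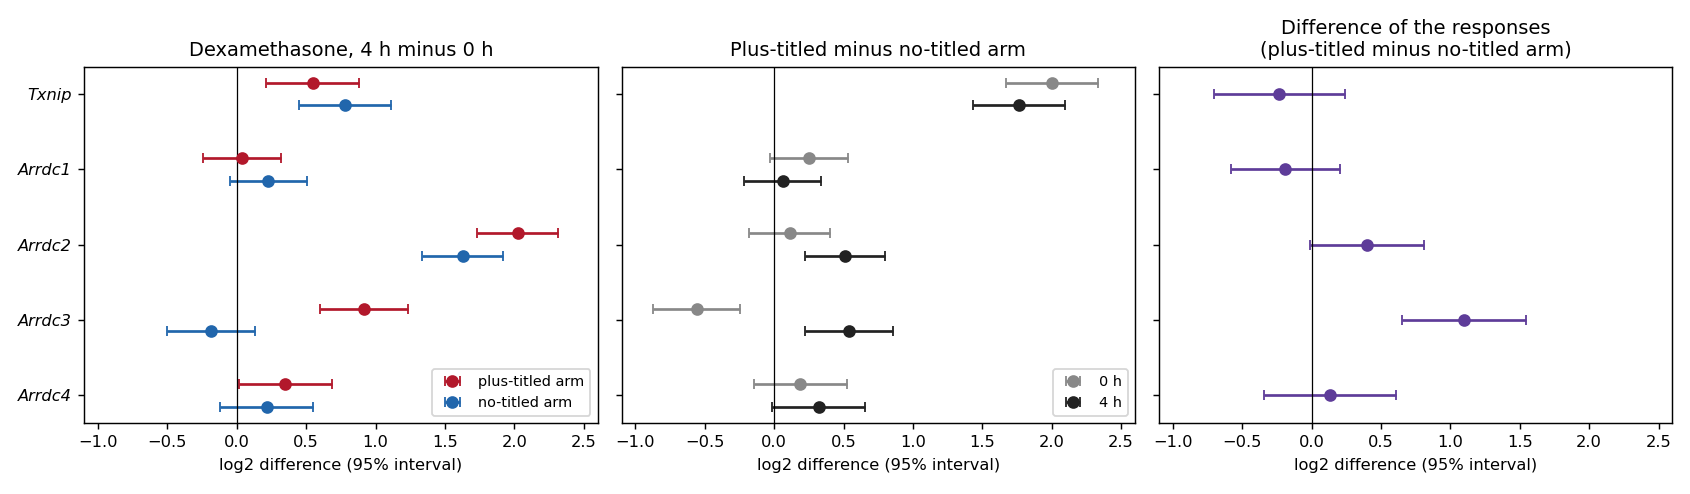
Log2 differences of the 5 genes with 95% intervals from the limma model: the dexamethasone response in each arm (left), the plus-titled minus no-titled difference at 0 h and 4 h (middle), and the difference of the responses (right). Arrdc2 responds in both arms, Txnip differs most between the arms, and Arrdc3 has the largest difference of the responses at 1.10. The Txnip arm differences were known when it was picked, so their intervals are no test.

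Arrdc1 and Arrdc4 passed in none of the contrasts. Arrdc1, the vesicle-budding member, read 6.54 and 6.84 at 4 h in the plus-titled arm, against 6.57 and 6.73 at 0 h. In the no-titled arm it read 6.58 and 6.67 at 4 h, against 6.43 and 6.37 at 0 h. The plus-titled groups overlapped and the no-titled ones did not, but a difference of 0.23 there was not called (95% interval -0.05 to 0.50, limma adjusted p = 0.687). Its mean response of both arms was 0.13 (95% interval -0.07 to 0.33).

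Arrdc4, the other carbohydrate-controlled member, was dim, at percentile 14.9 of genes by level. It read 4.07 and 3.92 at 4 h in the plus-titled arm, against 3.54 and 3.76 at 0 h, and 3.70 and 3.65 at 4 h in the no-titled arm, against 3.23 and 3.69 at 0 h. The no-titled groups overlapped and the plus-titled ones did not, but the difference of 0.35 there was not called (limma adjusted p = 0.476). Its mean response of 0.28 (95% interval 0.05 to 0.52) had an unadjusted p of 0.0239 and a limma adjusted p of 0.274. Between the arms it differed by 0.19 at 0 h (adjusted p = 0.526) and by 0.32 at 4 h (95% interval -0.02 to 0.65, adjusted p = 0.25).

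Of the 5 members, 2 rose in the plus-titled arm (Arrdc2 and Arrdc3), 2 in the no-titled arm (Txnip and Arrdc2) and 2 in the mean of both arms (Txnip and Arrdc2). Over all genes limma called 1.1%, 1.43% and 2.96% in those contrasts. Between the arms, of the 4 Arrdc genes, Arrdc3 was lower in the plus-titled arm at 0 h, and Arrdc2 and Arrdc3 were higher there at 4 h, where 9.38% and 9.61% of all genes were called. Median differences of all genes lay between -0.02 and 0.01 in the 6 contrasts.

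**Figure D4:**
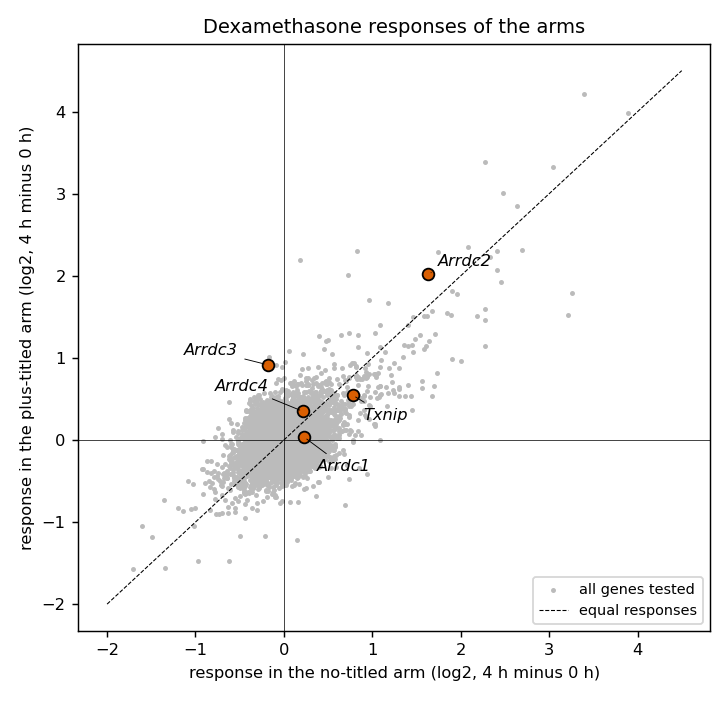
Dexamethasone response in the plus-titled arm (vertical axis) against that in the no-titled arm (horizontal axis), both in log2 units, for all 19938 genes (grey) and the 5 members (orange). Arrdc2 lies near the line of equal responses at 2.02 and 1.63, while Arrdc3 lies above it at 0.92 and -0.18.

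Among other arrestin-fold genes, 0 of 9 were called for the mean hormone response by limma (median 0.03), where 2.96% of all genes were called. Vps26c, a retriever subunit gene (-0.23, adjusted p = 0.212), and Sag, which encodes the rod visual arrestin (-0.19, 0.469), had the smallest p. Arrdc5, dim at percentile 19.4, read 0.04 and the beta-arrestin gene Arrb1 0.03. Between the arms 1 of 9 was called at each time, near the 9.38% and 9.61% of all genes, namely the retromer gene Vps26a, higher in the plus-titled arm by 0.44 at 0 h (adjusted p = 0.0355) and 0.41 at 4 h (adjusted p = 0.0476). Its calls were lost in 8 and 10 of 16 alternatives (adjusted p up to 0.204 and 0.28), including those without any 1 of the 4 arrays compared.

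In the thioredoxin system the counts called in the main fit were near or below those of all genes. For the mean hormone response 0 of 13 measured genes were called by limma, against 2.96% of all genes (median 0.03, range -0.20 to 0.24), with Prdx2, a peroxiredoxin, at 0.24 (adjusted p = 0.332) and the reductase gene Txnrd1 at -0.20 (0.387). Txn1, the thioredoxin that TXNIP binds, differed by -0.01 (adjusted p = 0.987) in that contrast. Between the arms Txn1 differed by -0.13 at 0 h (adjusted p = 0.503) and by -0.14 at 4 h (adjusted p = 0.484). At 0 h 1 of 13 was called (9.38% of all genes), the sulfiredoxin gene Srxn1, lower in the plus-titled arm at -0.53 (adjusted p = 0.0163), a call lost without either no-titled 0 h array (adjusted p = 0.0989 and 0.0991) or replicate 1 of the plus-titled 0 h group (0.0662). At 4 h 0 were called (9.61% of all genes), with Prdx1 at 0.32 (adjusted p = 0.0991) and Prdx2 at -0.38 (0.132). Some alternatives gave more calls. A trended, robust variance model gave 1 higher and 1 lower at each time. The filter on dim genes gave 1 higher at each time, and cyclic loess normalization gave 1 higher at 4 h.

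Of the Mondo and Mlx factors with glucose-responsive genes, 0 of 8 were called by limma in any contrast, where the share of all genes called reached 9.61%. Mlxip, which encodes MondoA, was at 0.26 between the arms at 0 h (adjusted p = 0.207) and 0.17 at 4 h (0.451), and its partner Mlx at 0.21 (0.33) and 0.18 (0.439). Pklr, the liver pyruvate kinase gene, was at -0.38 at 0 h (adjusted p = 0.189). For the mean hormone response Klf10 was at -0.33 (adjusted p = 0.108), the fatty acid synthase gene Fasn at -0.32 (0.162), Mlxip at 0.18 (0.425) and Mlx at -0.25 (0.178). The median of the list was 0.10 at 0 h and 0.00 at 4 h between the arms, and -0.04 for the hormone response.

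Of the NEDD4-family ligases, which alpha-arrestins recruit, all the genes called between the arms were higher in the plus-titled arm. At 4 h 4 of 9 were called higher and 0 lower by limma (median 0.15). Of all 19938 genes, 1054 were called higher and 862 lower in that contrast. The called ligase genes were Nedd4l at 1.07 ± 0.13 (SE, limma adjusted p = 0.000755), Wwp1 at 1.04 ± 0.13 (adjusted p = 0.00113), Smurf1 at 0.57 (0.0113) and Itch at 0.53 (0.0199). Nedd4l read 8.13 and 8.12 at 4 h in the plus-titled arm, against 7.12 and 6.98 in the no-titled arm. Wwp1 read 9.81 and 9.61 in the plus-titled arm, against 8.64 and 8.69. The calls of Nedd4l and Wwp1 at 4 h held in each of 16 alternatives. That of Itch was lost without any 1 of the 4 arrays compared (adjusted p from 0.0605 to 0.146), and that of Smurf1 without replicate 2 of the no-titled group (0.0994) or replicate 1 of the plus-titled group (0.0792).

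At 0 h 2 of the 9 ligase genes were called (9.38% of all genes), Wwp1 at 0.66 (limma adjusted p = 0.0114) and Nedd4l at 0.51 (adjusted p = 0.0302). Each call was lost without either no-titled 0 h array or replicate 1 of the plus-titled 0 h group (adjusted p up to 0.0746 and 0.184), and that of Nedd4l with only the 4 arrays compared (0.0602). For the mean hormone response 1 of 9 was called (2.96% of all genes), Smurf1, which fell by 0.54 (adjusted p = 0.00427). The largest increase of the list was 0.37. In some alternatives 1 ligase gene was also called higher. These were the trended, robust variance model, the replicate block, the filter on dim genes and cyclic loess normalization. Within an arm Nedd4l rose by 0.65 in the plus-titled arm (adjusted p = 0.0343), a call lost in 9 of 16 alternatives (adjusted p up to 0.212), and Smurf1 fell by 0.67 in the no-titled arm, lost in 3 of 16 (adjusted p up to 0.174). A ligase list of 9 genes with 4 calls stands beside 9.61% of all genes called at 4 h, and no test of the list itself was made.

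Of 12 measured cargo and partner genes, 2 rose with hormone in the mean of both arms (limma, median 0.00), where 2.96% of all genes were called. Ddit4, which encodes the mTORC1 inhibitor REDD1, a TXNIP partner, rose by 2.01 ± 0.15 (SE, adjusted p = 2.43e-05), and the thrombin receptor gene F2r rose by 0.58 (adjusted p = 0.002). Slc2a1, which encodes GLUT1, was at 0.21 (adjusted p = 0.302). Between the arms at 4 h Insr, the insulin receptor gene, was higher in the plus-titled arm by 0.70 (adjusted p = 0.00427) and F2r by 0.61 (adjusted p = 0.00708). The Insr call was lost without replicate 1 of the no-titled 4 h group (0.05), and that of F2r without that array (0.0724) or replicate 1 of the plus-titled 4 h group (0.0536). At 0 h Insr was higher by 0.60 (adjusted p = 0.00944), lost without replicate 1 of the no-titled group (0.0937) or replicate 2 of the plus-titled group (0.051). Ddit4 was lower at 0 h, at -0.75 (adjusted p = 0.0499), lost without any 1 of the 4 arrays compared (up to 0.249) and in 2 other settings. These were 2 of 12 genes at each time, where 9.38% of all genes were called at 0 h and 9.61% at 4 h. Slc2a1 differed by -0.06 at 0 h (adjusted p = 0.825) and by 0.31 at 4 h (adjusted p = 0.14).

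**Figure D5:**
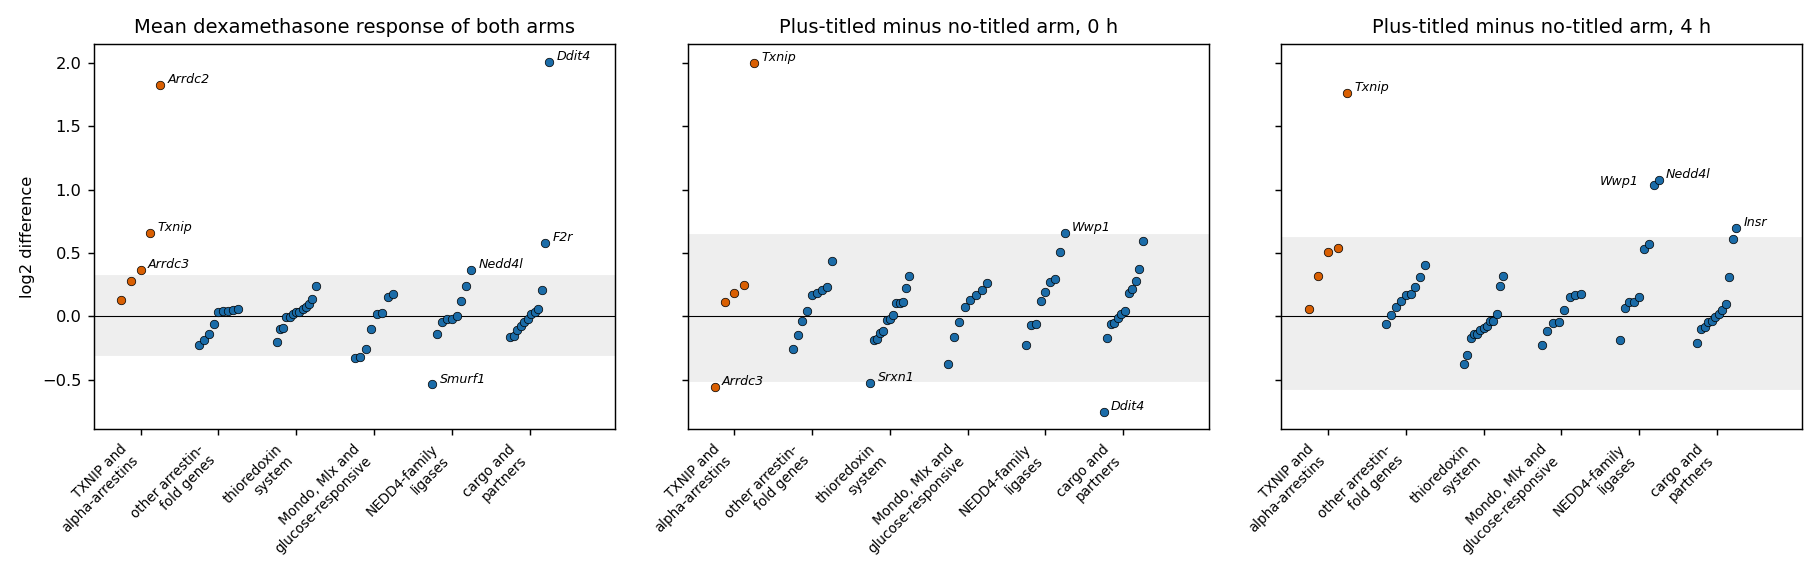
Log2 differences of each measured gene of the family (orange) and of 5 related lists (blue) for the mean dexamethasone response and for the plus-titled minus no-titled difference at 0 h and 4 h. The grey band holds the central 95% of all genes, and named points lie outside it. Txnip at 2.00 and 1.77 stands above every other listed gene in the arm differences, and Ddit4 at 2.01 and Arrdc2 at 1.83 lead the hormone response. The Txnip arm differences were known when it was picked.

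Markers of cell identity also differed between the arms beside Txnip, and their part in the difference was not tested. In limma the basal keratin gene Krt14 was lower in the plus-titled arm, at -1.39 at 0 h (adjusted p = 0.00093) and -1.41 at 4 h (adjusted p = 0.000771), while Acta2, a smooth muscle actin gene of the same list, was higher at 1.66 (0.0262) and 1.45 (0.0436). The luminal keratin gene Krt7 was higher by 0.65 and 0.71, and the mesenchymal receptor gene Pdgfra by 0.88 and 0.59. Other members of both lists had differences of the opposite sign at 0 h that were not called, among them Krt8 (-0.34), Krt18 (-0.32) and Krt19 (-0.16) of the luminal list (median -0.08), and Thy1 (-0.43), Vim (-0.32) and Col3a1 (-0.29) of the mesenchymal list.

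Acta2 read 7.87 and 6.63 at 4 h and 8.15 and 6.96 at 0 h in the plus-titled arm, against 5.99 and 5.62 at 4 h and 5.95 and 5.84 at 0 h in the no-titled arm. Replicate 1 was the higher plus-titled array at both times, and the arms did not overlap. Without it the Acta2 difference was 1.07 at 0 h and 0.83 at 4 h, and without replicate 2 it was 2.26 and 2.07. The calls of Acta2 were lost in 3 and 6 of 16 alternatives (adjusted p up to 0.26), that of Krt7 at 0 h without replicate 2 of the no-titled 0 h group (0.0763), that of Pdgfra at 4 h in 4 alternatives (up to 0.0784), and that of Pdgfrb at 0 h (0.52, adjusted p = 0.0298) in 4 of 16 (up to 0.182). At 0 h the calls were 2 of 5 basal, 1 of 7 luminal and 2 of 7 mesenchymal markers, the last with Pdgfrb, and 0 of 4 each for the leukocyte, endothelial and adipocyte lists, beside 9.38% of all genes.

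As mean log2 levels per array, the basal markers ranged from 5.68 to 6.03 in the plus-titled 4 h group and from 5.82 to 6.05 in the plus-titled 0 h group, against 5.81 to 5.88 and 5.80 to 5.95 in the no-titled groups at 4 h and 0 h. The mesenchymal markers ranged from 7.45 to 7.63 and from 7.59 to 7.75 in the plus-titled groups, against 7.46 to 7.47 and 7.59 to 7.63 in the no-titled ones. Luminal markers lay between 5.00 and 5.15 in all 8 arrays. The leukocyte, endothelial and adipocyte lists lay between 4.27 and 5.25.

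The genes whose levels followed each member most closely over the 8 arrays were found by Pearson correlation among the 1873 or 1874 other genes with an SD of at least 0.3. Symbols that are clone or locus names were left out. These are descriptions, and the points share the same 4 groups. Txnip was most like Cryab (r = 0.997), a small heat shock protein gene, Rab3gap1 (0.993), Tmem87b (0.991), Adam9 (0.991) and Tango2 (0.990). Of the genes compared, 267 had a correlation above 0.9 with Txnip, so the named genes are not its only close matches. Cryab read 9.66 and 9.81 at 4 h in the plus-titled arm, against 9.60 and 9.52 at 0 h, with 8.92 and 9.05 at 4 h in the no-titled arm, against 8.65 and 8.77 at 0 h. Its groups lay in the same order as those of Txnip over a smaller range.

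Arrdc2 was most like Tcim (r = 0.998), the forkhead factor gene Foxo3 (0.993), the small GTPase gene Rhou (0.991), Tsc22d3 (0.989) and the glutamine synthetase gene Glul (0.989). With Arrdc2, 85 of the genes compared had a correlation above 0.9. None of the genes compared reached a correlation of 0.9 with Arrdc3. The closest were the transporter gene Slc10a6 (0.847), Setdb2 (0.828), Mras (0.823), Bnip3 (0.806) and the sulfotransferase gene Sult1a1 (0.795). Arrdc1 was closest to Fthl17f (0.910), Mfsd13a (0.905), Slc31a2 (0.904), Il4ra (0.854) and Tmem241 (0.850). Arrdc4 was closest to Dnajc22 (0.920), Fos (0.904), Pafah2 (0.890), Calr4 (0.889) and Hsd17b11 (0.886). For those last 2 members the SDs within groups, of 0.05 to 0.21 for Arrdc1 and 0.04 to 0.32 for Arrdc4, are large beside their differences between groups.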

How the data were processed

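RNA from 8 samples was measured on Affymetrix arrays. The deposited table holds log2 expression values that the authors made with RMA in Affymetrix Expression Console, per the submitters' processing notes, whose versions are not stated. RMA gives all arrays a like distribution, which hides any shift shared by most genes. Of 28888 probe sets, 21789 had 1 symbol, 1621 several and 5478 none in the annotation used. Symbols were updated by gene number (21698 found), and the probe set with the highest mean stood for each of 19938 genes.

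Group means over the 8 arrays were fitted with lmFit and eBayes (limma 3.58.1, R 4.3.3), with Benjamini-Hochberg adjustment over all genes, 4 residual and 6.64 prior degrees of freedom. The procedure was tested on simulated data. Alternatives varied the variance model, the arrays in the fit, the replicate block, the filter on dim genes, the normalization and the probe set rule, and left out each array. The number of arrays limits the precision. The members and lists were chosen with earlier results of these data known. Named from each list were up to 4 called genes by size or else the 2 with the smallest p, plus Txn1, Mlxip, Mlx, Slc2a1, Arrdc5 and Arrb1, and the markers beside Txnip were named after their values were seen. Promoter sequences are RefSeq's.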

Additional observations from a re-analysis of the deposited data

How the results depend on the processing

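Of the 30 member differences, 17 kept their side of the threshold and their sign in each alternative run. A further 6, none of them called, changed sign when 1 array was left out. Their ranges with each array left out were -0.11 to 0.18 for the Arrdc1 response in the plus-titled arm, -0.0851 to 0.21 for Arrdc1 between the arms at 4 h, -0.0228 to 0.25 for Arrdc2 at 0 h, -0.0095 to 0.44 for the Arrdc4 response in the no-titled arm, -0.0388 to 0.41 for Arrdc4 at 0 h and -0.0945 to 0.36 for the difference of the Arrdc4 responses. Of 464 recomputed values, 7 changed sign, 22 lost a call, 1 gained it and 2 of Txnip moved by more than that gene's SD in the limma model. With only the 4 arrays compared, the Txnip response in the no-titled arm (0.78, adjusted p = 0.102) and the Arrdc3 difference at 4 h (0.54, adjusted p = 0.0757) were not called. Leaving out each array in turn gave ranges of 0.78 to 1.05 for the Arrdc3 response in the plus-titled arm, 0.60 to 0.95 for the Txnip response in the no-titled arm, 1.82 to 2.18 for Txnip between the arms at 0 h, -0.62 to -0.49 for Arrdc3 at 0 h, 0.38 to 0.64 for Arrdc2 at 4 h and 0.36 to 0.72 for Arrdc3 at 4 h. Without the dimmest genes, a filter that drops Arrdc4, the mean Arrdc3 response of 0.37 was called (adjusted p = 0.0489). The cause of these changes was not tested, beyond the fewer arrays or genes of each fit.

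The replicate number as a block changed no call of a member: Arrdc3 in the plus-titled arm had 0.92 (adjusted p = 0.0161), Txnip in the no-titled arm 0.78 (0.0182) and the difference of the Arrdc3 responses 1.10 (0.326). Deviations of same-numbered arrays correlated at -0.019 to 0.133 between groups, so the numbers were not taken as pairs. The count of genes called ranged from 80 to 370 around 220 in the plus-titled response, 134 to 461 around 285 in the no-titled, 331 to 846 around 590 in their mean, 589 to 2594 around 1870 and 654 to 2609 around 1916 between the arms at 0 h and 4 h, and 0 to 11 around 1 for the difference of the responses. Counting only promoters of genes tested on the array, 8.24% held an E-box, 0.537% the relaxed carbohydrate response element, 37.4% an NF-Y box, 4.63% an AP-1 site, 3.01% a FoxO site and 0.0104% the glucocorticoid response element.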
